A study of Homo sapiens with 12 samples.

Results

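The gene loci described here are those of 10 human genes of the NF-κB and Hodgkin lymphoma programme, namely TNFRSF8, TRAF1, NFKB1, NFKB2, REL, RELB, JUNB, BATF3, TNFAIP3 and CD274. Each gene was represented by a fixed window on the genome build hg19, and every PAX5 peak that overlapped a window by at least 1 bp was taken. The windows ran, in Mb, from 12.1 to 12.23 on chromosome 1 for TNFRSF8, from 123.64 to 123.72 on chromosome 9 for TRAF1, from 103.4 to 103.56 on chromosome 4 for NFKB1, and from 104.13 to 104.18 on chromosome 10 for NFKB2. They ran from 61.08 to 61.18 on chromosome 2 for REL, from 45.48 to 45.56 on chromosome 19 for RELB, and from 12.88 to 12.93 on chromosome 19 for JUNB. The last ones were 212.83 to 212.9 on chromosome 1 for BATF3, 138.16 to 138.23 on chromosome 6 for TNFAIP3, and 5.43 to 5.5 on chromosome 9 for CD274. The 10 windows covered 860 kb and held 69 of the 25380 peaks of all lists. Merged where they overlapped or touched, these peaks formed 32 of the 14465 regions of the series.

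PAX5-bound chromatin had been sequenced from 3 lymphoma lines, with 2 immunoprecipitated libraries and 1 peak list per library for each line. L428-PAX5 was made from the classical Hodgkin lymphoma line L428 so that it produces PAX5. It was treated with mifepristone, and PAX5 production was induced 48 h before the cells were fixed. Raji and Namalwa are untreated lines of Burkitt lymphoma and are called the B-cell lines. Fixation (20 min in 1% formaldehyde) and the PAX5 antibody (10 µg) were the same for all lines. The lists held 6201 and 3252 peaks in L428-PAX5 replicates 1 and 2, 2619 and 4960 in Raji and 6241 and 2107 in Namalwa. Read depth is unknown, the series held no uninduced L428 library, and no values from the 6 input libraries stand beside the peaks. A window without a peak is one in which no signal passed the threshold of that list.

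PAX5 is the transcription factor that sets and maintains B-cell identity, and Hodgkin tumour cells, which descend from B cells, have largely switched off B-cell genes. NF-κB proteins are dimers of the products of NFKB1, NFKB2, REL, RELB and RELA, which bind DNA at κB sites and drive survival and inflammatory genes once upstream receptors release them from inhibitors. Constant NF-κB activity, CD30 (the product of TNFRSF8) on the cell surface and strong expression of the AP-1 factors JUNB and BATF3 are hallmarks of Hodgkin tumour cells.

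The windows of NFKB2 and REL held the strongest regions that L428-PAX5 had and both B-cell lines lacked, so the promoters of these genes are shown. They are RefSeq promoter entries on GRCh38.p14, cut to the 250 bases before an annotated start. The peaks are on hg19 and no hg19 genome or annotation was used here, so whether a peak covers these bases was not determined, and the peak sequences themselves are not printed. Capitals mark matches, on either strand, to the NF-κB consensus of 10 letters and, in the first sequence, also to GCGTGAC, a core of PAX5 sites. Matches to the NF-κB consensus overlapped each other in the longest capital run of the first sequence and in that of REL, and none overlapped the GCGTGAC match. The other NFKB2 start of the table, start 1, held neither motif and is not printed, so the NFKB2 sequences shown are those with a match.
NFKB2, start 2, chr10:102394328-102394577, plus strand: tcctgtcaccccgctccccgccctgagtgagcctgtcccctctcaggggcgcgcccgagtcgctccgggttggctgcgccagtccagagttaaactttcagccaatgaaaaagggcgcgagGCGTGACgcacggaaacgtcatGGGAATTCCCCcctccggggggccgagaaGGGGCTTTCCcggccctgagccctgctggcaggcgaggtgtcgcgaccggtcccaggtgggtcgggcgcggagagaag
NFKB2, start 3, chr10:102395455-102395704, plus strand: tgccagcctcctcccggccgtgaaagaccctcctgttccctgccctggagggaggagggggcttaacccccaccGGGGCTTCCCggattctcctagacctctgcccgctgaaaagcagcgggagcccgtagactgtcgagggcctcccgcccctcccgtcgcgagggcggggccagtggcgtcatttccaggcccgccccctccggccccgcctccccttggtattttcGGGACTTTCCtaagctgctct
REL, chr2:60881324-60881573, plus strand: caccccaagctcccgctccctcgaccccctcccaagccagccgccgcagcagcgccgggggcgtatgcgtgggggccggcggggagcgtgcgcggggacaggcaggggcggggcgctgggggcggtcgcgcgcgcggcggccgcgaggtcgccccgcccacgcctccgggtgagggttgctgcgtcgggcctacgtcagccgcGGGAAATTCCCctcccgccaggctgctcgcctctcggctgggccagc

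Promoter entries matched 8 of the 10 genes, with 13 starts in all. The NF-κB consensus was found before 5 of these 13 starts, in 4 genes, NFKB2, REL, NFKB1 and TNFAIP3. Among all 35116 promoter entries of the same length, 5.21% held it. GCGTGAC was found before 1 of the 13 starts, the one of NFKB2 printed first, and in 2.20% of all promoters. A match describes these letters only and does not show that a factor binds there.

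All 10 windows held a peak of at least 1 library. Windows with peaks of both libraries of a line numbered 8 for L428-PAX5, 3 for Raji and 4 for Namalwa. Of 30911 bins of 100 kb that tile the chromosomes, 7.22% had peaks of both L428-PAX5 libraries, 6.12% of both Raji libraries and 5.38% of both Namalwa libraries, and 28.1% had a peak of any library. Bins include stretches without genes, so they are a low background for windows set on genes. In 4 windows, NFKB1, NFKB2, REL and BATF3, both L428-PAX5 libraries had peaks and the B-cell lines had none, a pattern seen in 4.06% of bins. The opposite, a peak in a B-cell line and none in L428-PAX5, held for RELB alone among the windows and for 11.9% of bins. Only TNFRSF8 and TRAF1 had peaks of all 6 libraries, as 0.880% of bins had. For TNFRSF8 this depended on the window edges. With windows narrowed by 10 kb at each end, L428-PAX5 replicate 2 had no peak left there.

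The number of windows with both L428-PAX5 libraries rested in part on weak peaks and on peaks near window edges. Cut to 2107 peaks each, as many as the shortest list holds, the lists gave 5 such windows for L428-PAX5, 3 for Raji and 4 for Namalwa. The share of bins was not computed for the cut lists, so these counts have no background beside them. The L428-PAX5 windows lost were NFKB1, JUNB and BATF3. With full lists and windows narrowed by 10 kb at each end, the counts were 6 for L428-PAX5, 2 for Raji and 4 for Namalwa. The L428-PAX5 windows lost then were TNFRSF8 and CD274.

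**Figure D1:**
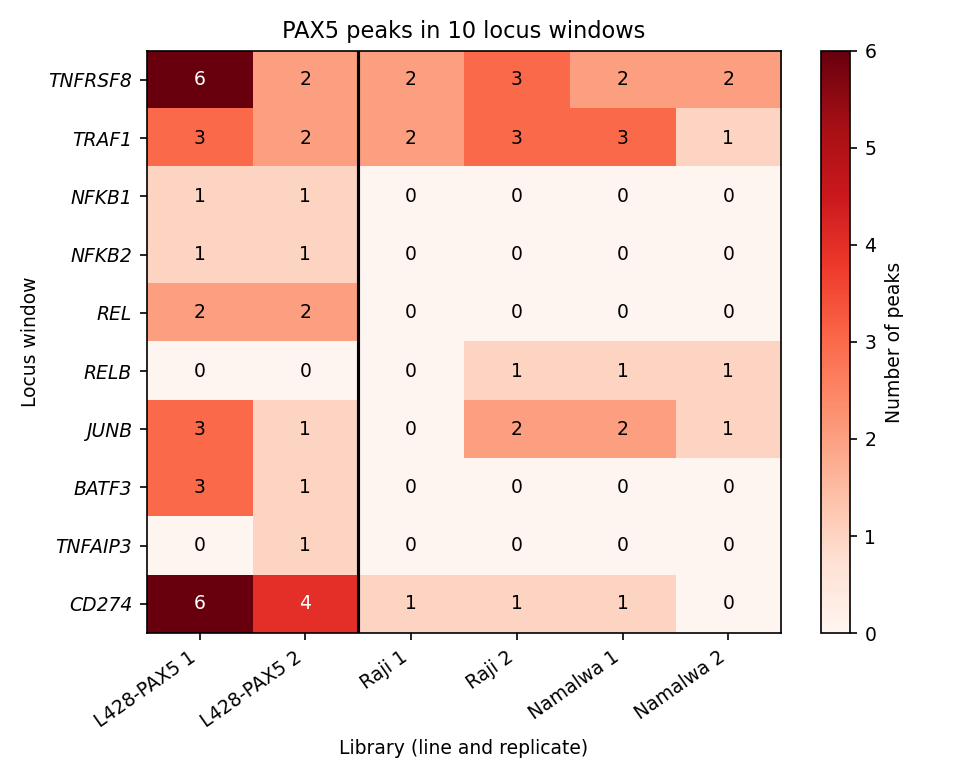
Number of PAX5 peaks in each of the 10 locus windows (vertical axis) and each library (horizontal axis), with L428-PAX5 left of the black line and Raji and Namalwa right of it. The cells of NFKB1, NFKB2, REL and BATF3 hold 1 to 3 peaks in both L428-PAX5 libraries and 0 in all 4 libraries of the B-cell lines.

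Among the genes of NF-κB subunits, NFKB2, whose precursor is processed to the subunit of the alternative NF-κB pathway, had the strongest peaks of all windows in L428-PAX5. Its single region lay on chromosome 10, 104153857 to 104154890. In L428-PAX5 replicates 1 and 2 the −log10 p was 60.5 and 30.3, which placed the peaks at ranks 14 of 6201 and 45 of 3252, where rank 1 is the smallest p-value of a list. No Raji or Namalwa library had a peak in the window, and the nearest B-cell-line peak was 116.43 kb from the region, in Raji replicate 2. The peaks were wide, 1011 and 985 bp, and 93.2% and 93.8% of the peaks of their lists were narrower. Their centres lay 35 bp apart. Strong L428-PAX5 peaks were mostly of this kind. Of those up to rank 50, 86.0% in replicate 1 and 86.0% in replicate 2 lay in regions without a B-cell-line peak, and up to rank 200 the shares were 84.5% and 83.0%.

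The window of REL, which encodes the subunit c-Rel, held 2 regions of both L428-PAX5 libraries and none of the B-cell lines. The first, on chromosome 2, 61108614 to 61109796, ranked 48 of 6201 and 184 of 3252 in L428-PAX5 replicates 1 and 2, with −log10 p values of 37.3 and 17.0. Its peaks were 1182 and 904 bp wide, and 97.2% and 90.8% of the peaks of their lists were narrower. The second, 61175306 to 61175726, ranked 1021 and 2083, and its 2 peaks had centres 5 bp apart. The second region was thus narrow, and it was weaker than the first by rank in both replicates. It ended 4.27 kb from the edge of the window, on the side where PUS10 is the neighbouring protein-coding gene in the gene order of GRCh38.p14. It was not assigned to either gene. Without 10 kb at each end of the window the difference in peaks per library was 1. The nearest B-cell-line peaks were 37.98 kb from the first region and 17.72 kb from the second, outside the window. With windows widened by 50 kb on each side, these and other peaks turned the difference in peaks per library to -1, from 2 in the window as set.

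NFKB1 encodes the precursor of the subunit of the classical pathway. Its window held 1 region, on chromosome 4, 103485556 to 103486006, found in both L428-PAX5 libraries low in their lists, at ranks 6051 of 6201 and 2541 of 3252. No B-cell-line peak lay within 118.27 kb of it. The −log10 p was 5.11 and 5.76, just above the threshold of 5 that all deposited peaks pass.

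RELB, the partner of the NFKB2 product in the alternative pathway, had no peak in either L428-PAX5 library, 0 and 1 peak in Raji replicates 1 and 2, and 1 peak in each Namalwa library. The Namalwa peaks formed 1 region on chromosome 19, 45519430 to 45520024, at ranks 1631 of 6241 and 1108 of 2107. The Raji peak lay elsewhere, at 45502532 to 45503140, with rank 4131 of 4960. The nearest L428-PAX5 peak was 110.03 kb from the Namalwa region, and Raji and Namalwa shared no region in this window.

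The windows with sites shared between lines were those of TNFRSF8, TRAF1, JUNB and CD274. TNFRSF8, the gene of the receptor CD30, had 6 and 2 peaks in L428-PAX5, 2 and 3 in Raji and 2 and 2 in Namalwa. The L428-PAX5 replicates differed from each other by more than the mean of 4.00 ± 2.83 in L428-PAX5 (SD, n = 2) differed from that of 2.25 ± 0.50 in the B-cell lines (SD, n = 4). One region, on chromosome 1, 12100014 to 12101183, was found in all 6 libraries, as 1.02% of all regions were. By its best peak it ranked 266 of 6201 and 264 of 3252 in L428-PAX5, 253 of 2619 and 1170 of 4960 in Raji and 130 of 6241 and 38 of 2107 in Namalwa. It begins 0.01 kb from the edge of the window, on the side where MIIP is the neighbouring protein-coding gene in the gene order of GRCh38.p14, and it was not assigned to either gene.

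A different region of the TNFRSF8 window, 12208895 to 12209857, was found in all 4 B-cell-line libraries and in neither L428-PAX5 library. It ranked 536 of 2619 and 488 of 4960 in Raji and 560 of 6241 and 578 of 2107 in Namalwa. The nearest L428-PAX5 peak was 13.27 kb away, a peak of replicate 2 at rank 2148 that no other library had. L428-PAX5 replicate 1 had 5 further peaks between 12104511 and 12139215, at ranks 1084, 4983, 1119, 3620 and 2267 of 6201 in order of position, and none of them was found in replicate 2. L428-PAX5 and the B-cell lines thus each had peaks in this window that the other lacked.

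TRAF1, an adaptor of receptors such as CD30 and itself a target of NF-κB, had the most evenly shared peaks. There were 3 and 2 peaks in L428-PAX5, 2 and 3 in Raji and 3 and 1 in Namalwa, and all 14 fell into 3 regions on chromosome 9. The region at 123654910 to 123656165 ranked 966 of 6201 and 652 of 3252 in L428-PAX5, and had a peak in Raji replicate 2 (rank 1157 of 4960) and Namalwa replicate 1 (rank 2398 of 6241). The L428-PAX5 peaks of this region were 1176 and 1045 bp wide, against 820 bp in Raji and 710 bp in Namalwa, and the centres of the 4 peaks lay within 312 bp. The region at 123693940 to 123694717 was found in all 4 B-cell-line libraries, at ranks from 860 of 2107 to 1258 of 4960, and in L428-PAX5 replicate 1 at rank 1963 of 6201. The third, 123698094 to 123698745, was found in both L428-PAX5 libraries at ranks 713 and 750, in both Raji libraries at ranks 921 and 285, and in Namalwa replicate 1 at rank 894. The missing peaks were all in the shorter list of a line.

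Within-list strength at the TRAF1 regions was set side by side. The percentile of a peak, the share of its list with a larger p-value, averaged 82.7 ± 8.2 in L428-PAX5 (SD, n = 2) and 81.6 ± 15.2 in the B-cell lines (SD, n = 3) at the third region. At the first it was 82.2 ± 3.2 (SD, n = 2) and 69.1 ± 10.7 (SD, n = 2). At the second it was 68.34 in L428-PAX5 replicate 1 (n = 1) and 69.05 ± 11.23 in the B-cell lines (SD, n = 4). The gap was below the SDs at the third region and above them at the first. Libraries without a peak do not enter these means.

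TNFAIP3 encodes A20, an enzyme that shuts NF-κB signalling down and is often inactivated in Hodgkin lymphoma. Its window held 1 peak in all, on chromosome 6, 138225464 to 138225958, in L428-PAX5 replicate 2 at rank 3176 of 3252. The peak ended 4.04 kb from the edge of the window, on the side where PERP is the neighbouring protein-coding gene. It was lost when windows were narrowed by 10 kb. The nearest B-cell-line peak was 22.89 kb away, outside the window.

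In the windows of the AP-1 genes the L428-PAX5 peaks all lay below the middle of their lists, and most regions were seen in 1 library. JUNB, an AP-1 subunit, had 3 and 1 peaks in L428-PAX5, 0 and 2 in Raji and 2 and 1 in Namalwa. Of its 6 regions, 5 were seen in 1 library each, as were 55.1% of all regions. In L428-PAX5 these were at ranks 4950 and 3750 of 6201 in replicate 1 and 2911 of 3252 in replicate 2, against 1871 of 4960 in Raji replicate 2 and 6002 of 6241 in Namalwa replicate 1. The sixth, on chromosome 19, 12916836 to 12917380, was found in L428-PAX5 replicate 1 at rank 6116 of 6201, in Raji replicate 2 at rank 1979 of 4960 and in both Namalwa libraries at ranks 1597 of 6241 and 1809 of 2107. At this region the percentile was 0.71 in L428-PAX5 replicate 1, against 60.1 in Raji replicate 2 and 74.4 and 13.3 in Namalwa. Both L428-PAX5 libraries had a peak in the JUNB window, but in different places. No region of this window was assigned to JUNB or to its neighbouring protein-coding genes in the gene order of GRCh38.p14, HOOK2 and PRDX2. With equal-length lists the difference in peaks per library turned to -1, from 0.75 in the lists as deposited.

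BATF3, a partner of JUN proteins in AP-1 dimers, had 3 and 1 peaks in L428-PAX5 and none in Raji or Namalwa. The region of both L428-PAX5 libraries, on chromosome 1, 212851557 to 212852295, ranked 5515 of 6201 and 3176 of 3252. The other peaks, at 212874414 to 212874815 and 212885954 to 212886540, were in replicate 1 only, at ranks 3620 and 3307. These lay at percentiles of 41.3 and 46.5, below the middle of their list, whereas the region of both replicates averaged 6.64 ± 6.17 (SD, n = 2). No peak of the window was left when lists were cut to their better 50%.

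**Figure D2:**
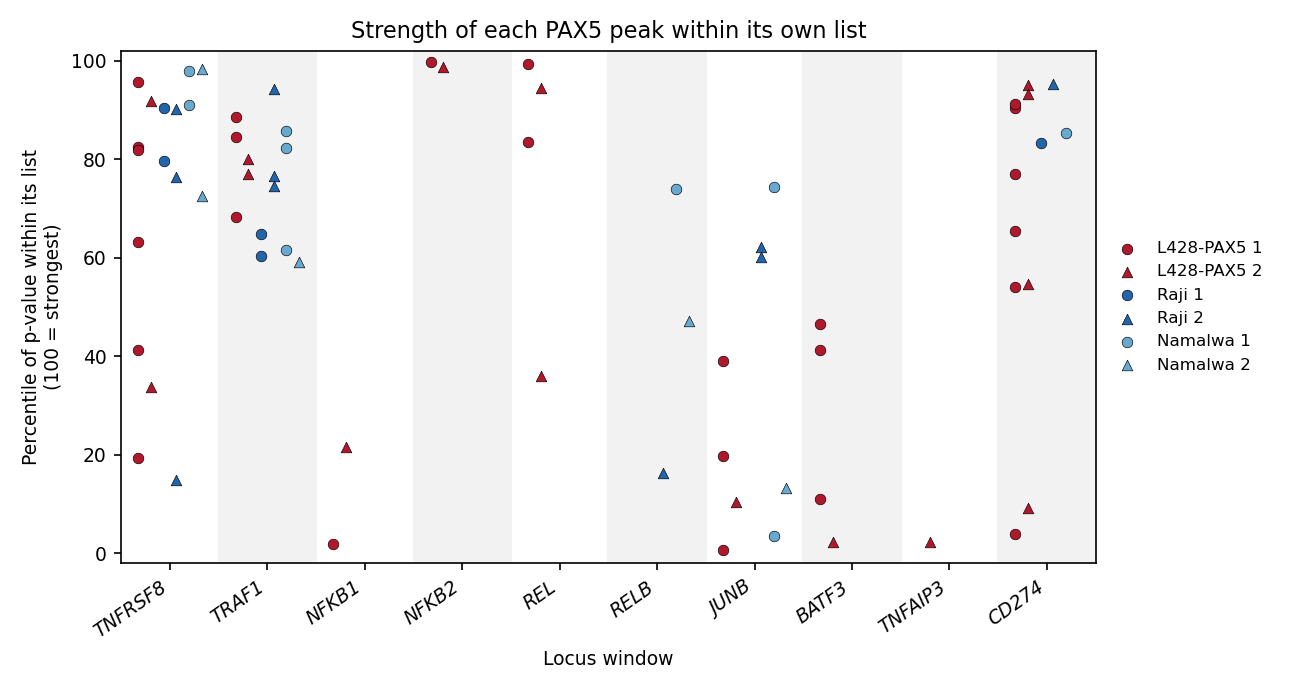
Percentile of each peak within its own list (vertical axis, 100 for the smallest p-value) for the 10 locus windows (horizontal axis), with L428-PAX5 in red left of Raji and Namalwa in blues, circles for replicate 1 and triangles for replicate 2. The NFKB2 peaks of L428-PAX5 lie at 99.8 and 98.6, whereas the NFKB1 and TNFAIP3 peaks lie at or below 21.5.

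CD274 encodes PD-L1, the ligand by which Hodgkin tumour cells restrain T cells. Its window had 6 and 4 peaks in L428-PAX5, 1 and 1 in Raji and 1 and 0 in Namalwa, the largest difference in counts of the 10 windows. The means were 5.00 ± 1.41 in L428-PAX5 (SD, n = 2) and 0.75 ± 0.50 in the B-cell lines (SD, n = 4). Most of these peaks lay in the first 10 kb of the window, on chromosome 9, towards the neighbouring gene PLGRKT. The regions of this window were not assigned to CD274 or PLGRKT. Without 10 kb at each end of the window the difference was 1, against 4.25 in the window as set. When peak centres had to lie in the window, the difference was 3.25.

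The shared region of the CD274 window, 5438305 to 5439286, was found in 5 libraries. It ranked 545 of 6201 and 222 of 3252 in L428-PAX5, 435 of 2619 and 231 of 4960 in Raji and 910 of 6241 in Namalwa replicate 1. Its percentiles averaged 92.2 ± 1.4 in L428-PAX5 (SD, n = 2) and 88.0 ± 6.5 in the B-cell lines (SD, n = 3), a difference smaller than the spread among the B-cell-line libraries. At 0.50 kb from a B-cell-line peak of this region lay one found only in L428-PAX5, 5437237 to 5437807, at ranks 1421 and 1471. The third, 5429271 to 5430387, crossed the edge of the window and had peaks of both L428-PAX5 libraries and no other, with best ranks of 596 of 6201 and 160 of 3252. Each L428-PAX5 list had 2 peaks in it. The remaining regions, at 5450110 to 5450874 and 5489580 to 5489972, were in L428-PAX5 replicate 1 alone, at ranks 2837 and 2139.

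**Figure D3:**
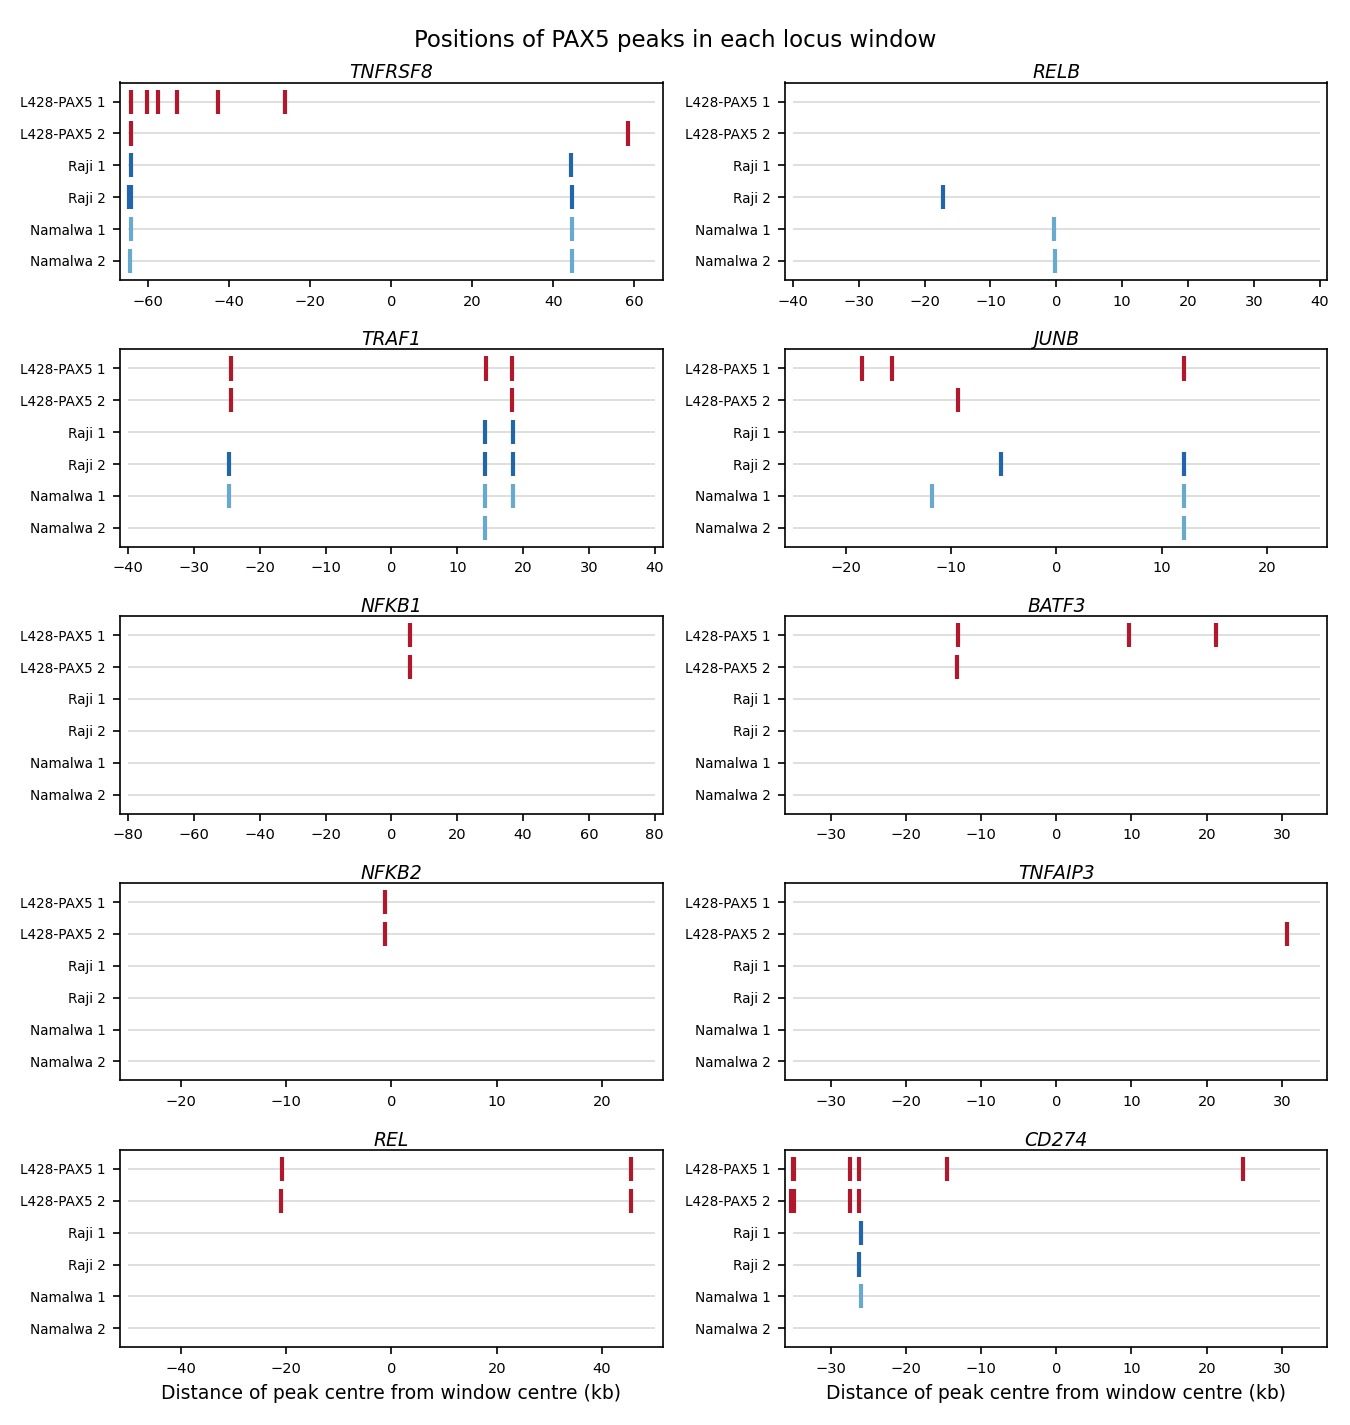
Distance of each peak centre from the centre of its window in kb (horizontal axis) in the 6 libraries (rows, L428-PAX5 in red above Raji and Namalwa in blues). TRAF1 peaks fall into 3 columns shared by the lines, while TNFRSF8 has a column at the left edge in all 6 libraries and one between 44.3 and 44.5 kb in the 4 B-cell-line libraries.

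Across the windows, both L428-PAX5 libraries shared 11 regions, of which 7 were free of B-cell-line peaks and 4 were not. When peaks within 500 bp were merged, the regions free of B-cell-line peaks numbered 6. Over the whole series, 82.1% of the regions that both L428-PAX5 libraries held were free of B-cell-line peaks. The 7 regions lay in the windows of NFKB1, NFKB2, REL, BATF3 and CD274. Their mean percentile had a median of 65.8 with a range of 6.64 to 99.2, against a median of 62.4 over all 2043 such regions. The 4 shared regions lay in the windows of TNFRSF8, TRAF1 and CD274. Their median was 87.5 and their range 82.2 to 93.8, against a median of 66.3 over all 444 such regions. These are descriptions of a chosen list, with no test.

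Of the 32 regions, 21 had peaks of L428-PAX5 only, 5 of the B-cell lines only, and 6 of both kinds of line. Over all regions the shares were 39.7%, 52.4% and 7.90%, against 65.6%, 15.6% and 18.8% in the windows. Regions of both L428-PAX5 libraries without a B-cell line numbered 7, or 21.9%, against 14.1% of all regions. Found in both libraries of at least 1 line were 15, 46.9%, against 36.7%, and found in 5 or 6 libraries were 4, 12.5%, against 2.41%. A total of 17 regions, 53.1%, were seen in a single library, close to the 55.1% of all regions.

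**Figure D4:**
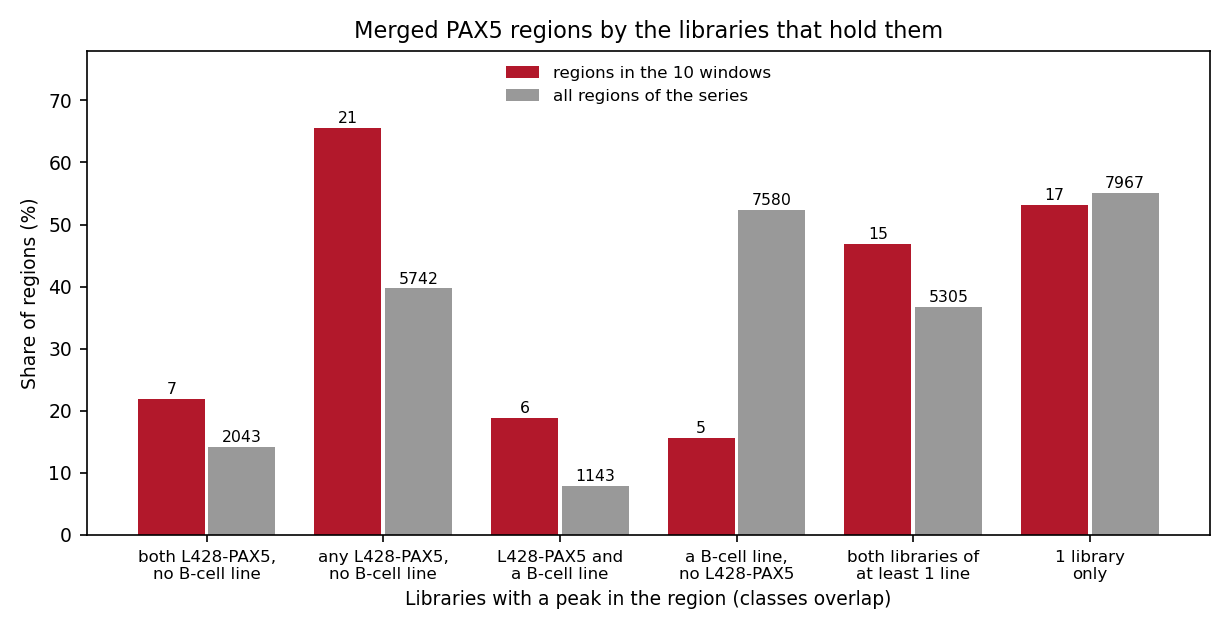
Share of merged regions (vertical axis, %) by the libraries with a peak in them (horizontal axis, classes overlap), for the 32 regions of the windows (red, left bars) and all 14465 regions of the series (grey, right bars), with the number of regions above each bar. Regions of a B-cell line without L428-PAX5 made up 15.6% in the windows and 52.4% in the series.

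The windows took a larger part of the L428-PAX5 lists than of the B-cell-line lists. They held 25 and 15 peaks in L428-PAX5, which was 0.403% (exact 95% interval 0.261 to 0.595%) and 0.461% (0.258 to 0.760%) of the lists. In Raji they held 5 and 10 peaks, 0.191% (0.0620 to 0.445%) and 0.202% (0.0967 to 0.370%). In Namalwa they held 9 and 5 peaks, 0.144% (0.0660 to 0.274%) and 0.237% (0.0771 to 0.553%). Both L428-PAX5 shares were above all 4 B-cell-line shares, but each L428-PAX5 interval overlapped each of theirs. With lists of equal length the shares were 0.570% and 0.427% in L428-PAX5, 0.237% and 0.38% in Raji and 0.332% and 0.237% in Namalwa, which brought the lowest L428-PAX5 share close to the highest B-cell-line share. In windows narrowed by 10 kb at each end they were 0.242% and 0.215% in L428-PAX5, 0.115% and 0.141% in Raji and 0.112% and 0.19% in Namalwa, and the lowest L428-PAX5 share was again close to the highest B-cell-line share. Per Mb, the windows held 14.5 and 16.6 times as many peaks as the chromosomes as a whole in L428-PAX5, 6.86 and 7.24 times in Raji and 5.18 and 8.53 times in Namalwa. Whole chromosomes include stretches without genes, so like the bins they are a low background for windows set on genes.

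For each window, the peaks per library of L428-PAX5 were set against those of the B-cell lines by a two-sided exact permutation test over the 15 choices of 2 of 6 libraries. NFKB1, NFKB2, REL, BATF3 and CD274 reached the smallest p that the design allows (exact permutation p = 0.0667, adjusted p = 0.133 by Benjamini-Hochberg over 10 windows), with more peaks in both L428-PAX5 libraries than in any of the 4 others. The remaining windows had exact permutation p-values of 0.333 to 1. For NFKB1 and BATF3 the difference fell to 0 with lists of equal length and with the better 50% of each list. For REL it was -1 in windows widened by 50 kb (exact permutation p = 0.8). For CD274 it was 1 in windows narrowed by 10 kb (exact permutation p = 0.333). The NFKB2 difference stayed between 1 and 1.5 under all alternatives. The design cannot reach 0.05, and the libraries of a line are not known to come from separate cultures, so the test separates no window from the spread between libraries. L428-PAX5 is 1 line, and a difference between it and the B-cell lines cannot be told apart from other differences between these lines.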

How the data were processed

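For each of the 6 immunoprecipitated libraries 1 peak list was deposited, with positions on hg19 and, in the last column, a p-value per peak (read as such from the values). PeakRanger appears in the peak names. BWA 0.5.9-r16 and CASAVA 1.3 and 1.8 are listed by the submitters' processing notes. Not given in the sources used here are the caller settings, any control, whether p is adjusted, and whether starts count from 0 or 1. Positions are printed as in the lists.

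The 10 genes, their windows and the overlap rule were chosen with earlier results of these data known. All 10 loci are named, with every region held by at least 2 libraries. Other regions are given by list and rank, some also by position. The p-values serve only to rank peaks within a list, with the smaller rank for ties. Exact intervals are Clopper-Pearson, at 95%, and cover counting error over peaks only. Promoter entries came from RefSeq (GRCh38.p14), and neighbouring genes from the gene order of that assembly. A list of further pathway genes was not analysed here, since no hg19 annotation was used. The motifs were chosen after the peaks were seen. Alternatives were peak centres, windows widened by 50 kb or narrowed by 10 kb (added after seeing the data), the better 50% of each list, equal-length lists, merging within 500 bp, both peaks in 1 region, a replicate block and each library left out. Counting was tested on simulated lists. The tools were pandas 2.3.3, scipy 1.17.1, numpy 2.4.6 and matplotlib 3.10.9 under Python 3.11.15.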

Additional observations from a re-analysis of the deposited data

How the results depend on the processing

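Of 237 values recomputed under 14 alternatives, 21 moved beyond 1.5 times the count or beyond the interval and 8 changed sign. The 120 differences in peaks per window among them entered this tally only by a change of sign, so a fall to 0 was not counted. With lists of equal length the difference was 0 for TNFRSF8, NFKB1, BATF3 and TNFAIP3. With the better 50% it was 0 for NFKB1, BATF3 and TNFAIP3. Widening the windows by 50 kb gave 5 windows with both Raji libraries, 54 regions, 12 of both L428-PAX5 libraries without a B-cell line, 18 of a B-cell line without L428-PAX5, and 0.403% of the list of Raji replicate 2. The difference in peaks per window was then -1 for REL. The better 50% of each list, with fewer peaks by construction, gave 5 windows with both L428-PAX5 and 2 with both Namalwa libraries, 19 regions, 4 of both L428-PAX5 libraries alone, and a JUNB difference of -0.75. Lists of equal length gave 5 windows with both L428-PAX5 libraries, 16 regions, 0.38% for Raji replicate 2, 0.332% for Namalwa replicate 1 and -1 for JUNB. Narrowing by 10 kb gave 21 regions, 4 of both L428-PAX5 libraries alone, 0.242% and 0.215% for L428-PAX5 replicates 1 and 2 (0.112 to 0.19% in the B-cell lines), and -0.25 for JUNB.

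With 1 library left out, windows with both (or the one remaining) libraries numbered 8 to 9 for L428-PAX5, 3 to 5 for Raji (most without replicate 1) and 4 to 5 for Namalwa. Regions numbered 21 to 32, with the fewest without L428-PAX5 replicate 1. Those of L428-PAX5 and no B-cell line numbered 7 to 18, with the most without L428-PAX5 replicate 2, when a single library suffices. Those of a B-cell line without L428-PAX5 numbered 3 to 7, with the fewest without Raji replicate 2, and the shared ones 4 to 6. Dropping L428-PAX5 replicate 1 put the difference in peaks per window at -0.25 for TNFRSF8, TRAF1 and JUNB, and dropping its replicate 2 put it at 3.75, 0.75 and 1.75 in the same order. TRAF1 had -0.167 without Namalwa replicate 2. The NFKB2 difference ran from 1 to 1.5 over its 12 alternatives and that of CD274 from 1 to 5.25. Beyond the construction of the settings, the causes were not tested.

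Deviations of replicates 1 and 2 over 8671 bins correlated at 0.064, -0.109 and -0.034 between lines, so no pairing by replicate number was seen in this measure. Whether libraries with the same replicate number were processed together was not tested. With line labels exchanged only within a replicate number (replicate block), the smallest exact permutation p was 0.111. No window passed 0.05 under any of these settings, which the design does not allow. Read depth is unknown, so a peak absent from a short list may lie below its threshold.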
